A study of Mus musculus with 2 samples.

Results

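The promoters of the cytosolic ribosomal protein genes were followed by scATAC-seq, an assay in which the transposase Tn5 cuts open chromatin in single nuclei, in brains of C57BL/6J mice taken at 48 h, following either transient occlusion of the middle cerebral artery with reperfusion (MCAO/R) or sham surgery. Members were the protein-coding genes on the mouse autosomes whose symbols begin with Rpl or Rps and a digit, or with Rplp, without the Rps6k kinases and without symbols that carry a pseudogene suffix. This gave 81 of 20807 protein-coding genes, of which 40 encode proteins of the large subunit, 29 of the small subunit and 3 of the stalk. The other 9 are paralogs or like-named genes, and 6 protein-coding genes with a pseudogene suffix were left out. Promoter level was the number of fragments that overlapped the transcription start site (TSS) ± 500 bp, per 1000000 fragments of the barcodes counted, written CPM below. All windows have the same length, so levels need no scaling by length when genes are compared. Levels were not corrected for mappability or base composition of the windows.

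All mice were wild-type males 8 to 12 weeks of age. Stroke mice had the artery occluded by a filament for 1 h and then reperfused, and sham mice had the filament inserted without sustained occlusion. The stroke library came from the pooled ipsilateral hemispheres of 4 mice and the sham library from 4 pooled brains, in each case without olfactory bulbs and cerebellum. With 1 library per condition there was no test between sham and stroke, and condition, pool, library and the hemispheres sampled cannot be told apart. Intervals are exact 95% Poisson intervals, or exact binomial intervals for ratios and shares, and cover counting error only. Sham held 74812348 fragments in 6979 called barcodes and stroke 88192915 fragments in 8740, with medians of 10266 and 9419 fragments per barcode, and 66 barcode sequences occurred in both libraries.

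The barcodes differed between the libraries in the share of fragments that lie in peaks, here called the peak fraction. In sham, 6818 barcodes had a peak fraction of 0.20 or more and 161 a lower one. In stroke, 5055 had 0.20 or more and 3685, which carried 40.1% of the fragments, had less. Results are therefore given for all called barcodes and for each side of this split. The cell filter in the paper's methods kept only cells with over 20% of reads in peaks. By that rule, barcodes below the split would not pass. However, the paper reports more stroke cells than there are called barcodes in the stroke library here. The cells of the paper therefore cannot be equated with the barcodes above the split, and the reason for this difference was not tested. The peaks were called by the authors in each library, and fragments at the promoters described here count toward the peak fraction.

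Ribosomal proteins form, with ribosomal RNA, the subunits that translate messenger RNA. Their genes are active in nearly every cell, and their messenger RNAs begin with a C followed by a run of pyrimidines, the 5′ terminal oligopyrimidine motif, through which mTOR signalling controls their translation. Their promoters usually lie in CpG islands, and binding sites for ETS factors, YY1 and SP factors are common in them. Most of these genes also have many processed pseudogenes, copies without introns and without the promoter.

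To show what the extremes look like, the sequences from 100 bases before to 20 bases after the start site are given for the 3 members with the highest mean level of both libraries, the 3 with the lowest and the 2 lowest outside the paralogs. They were read 5′ to 3′ on the gene strand from GRCm38.p6, which is mm10, and 20 bases follow the start site. Capitals mark matches to the ETS motif CCGGAAG or the SP motif GGGCGG on either strand, and the longest run of C or T over positions -5 to +15 where it had 5 bases or more. The windows are chr7:24884271-24884391 (+) for Rps19, chr7:45128741-45128861 (-) for Rpl13a, chr2:180257277-180257397 (+) for Rps21, chr17:24727720-24727840 (+) for Rpl3l, chr12:66284381-66284501 (-) for Rpl10l, chr16:10170128-10170248 (+) for Rpl39l, chr5:121204381-121204501 (+) for Rpl6 and chr9:64173275-64173395 (+) for Rpl4.
Rps19: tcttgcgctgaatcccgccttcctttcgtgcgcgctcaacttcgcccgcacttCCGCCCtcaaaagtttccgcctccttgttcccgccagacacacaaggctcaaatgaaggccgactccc
Rpl13a: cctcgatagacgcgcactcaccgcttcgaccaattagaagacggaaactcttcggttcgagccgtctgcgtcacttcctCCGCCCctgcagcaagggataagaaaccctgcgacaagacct
Rps21: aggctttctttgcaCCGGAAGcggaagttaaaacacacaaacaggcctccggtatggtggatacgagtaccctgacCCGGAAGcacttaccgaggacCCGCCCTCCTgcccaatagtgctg
Rpl3l: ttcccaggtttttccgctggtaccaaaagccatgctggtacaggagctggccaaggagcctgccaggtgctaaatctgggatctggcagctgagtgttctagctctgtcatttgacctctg
Rpl10l: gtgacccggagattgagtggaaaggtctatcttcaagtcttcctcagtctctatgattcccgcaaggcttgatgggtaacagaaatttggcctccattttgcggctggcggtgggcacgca
Rpl39l: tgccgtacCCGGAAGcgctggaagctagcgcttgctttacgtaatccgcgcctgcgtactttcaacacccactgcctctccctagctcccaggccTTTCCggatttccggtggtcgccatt
Rpl6: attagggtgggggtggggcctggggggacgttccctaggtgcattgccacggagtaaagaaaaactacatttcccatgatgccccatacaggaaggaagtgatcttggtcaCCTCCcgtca
Rpl4: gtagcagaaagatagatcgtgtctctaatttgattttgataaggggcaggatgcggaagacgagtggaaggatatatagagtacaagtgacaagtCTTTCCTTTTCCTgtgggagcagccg

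The 3 highest members each hold an SP match here, Rps21 also 2 ETS matches. The SP match of Rps21 runs into its pyrimidine run, which covers the annotated start site. Rpl3l and Rpl10l hold no marked element in this stretch, whereas Rpl39l, which was as closed as Rpl10l, has an ETS match. Rpl4 has the longest marked run, 13 pyrimidines from position -5. The marked runs of Rpl4 and Rpl39l begin at the edge of the positions searched, and the base before each is a pyrimidine too. The start sites are those of the annotation and were not measured here.

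Ribosomal protein gene promoters were among the more open promoters of the brain, and 77 of 81 lay above the median of all protein-coding windows in sham barcodes with a peak fraction of 0.20 or more. In these barcodes the members had a median of 15.1 CPM in sham and 13.8 in stroke, against 3.62 and 3.64 for all protein-coding windows. Over all called barcodes the medians were 14.9 in sham and 8.90 in stroke, against 3.57 and 2.61. In sham 19 of 81 members (23.5%) reached the 90th percentile of all windows, as 10% of all windows do by definition. The 257 pseudogenes of ribosomal proteins had a median of 0.190 in sham and 0.246 in stroke barcodes with a peak fraction of 0.20 or more. Only 1 pseudogene window reached the lowest level of the 72 members outside the paralogs, 4.53 CPM in sham, and a protein-coding start site lies within 1000 bp of it.

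The highest member was Rps19, a protein of the small subunit that is mutated in Diamond-Blackfan anaemia. Its window at chr7:24884371 (+) had 44.2 CPM (42.7 to 45.8) in sham and 37.8 in stroke barcodes with a peak fraction of 0.20 or more. Rpl13a, a large-subunit protein whose gene carries 4 small nucleolar RNA genes, followed with 38.7 (37.3 to 40.2) in sham and 30.9 in stroke. Rps21 came next with 33.2 (31.8 to 34.5) in sham and 28.4 in stroke. The intervals of these 3 do not overlap in sham, so their order exceeds counting error, and it was the same in stroke. From Rpl15 down to Rps19bp1 the levels form a continuum in which neighbours do not differ beyond their intervals. In sham Rpl15 had 29.0 and Rps29 28.4, at one level within counting error. Also within the 12 highest were Rpl37 with 27.0, Rpl7a with 26.3, Rpl27a with 25.5, Rps2 with 25.4 and Rpl27 with 25.1. The windows of Rpl15 and Rpl7a also hold the start sites of Nkiras1 and Med22, whose fragments cannot be told apart from theirs.

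**Figure D1:**
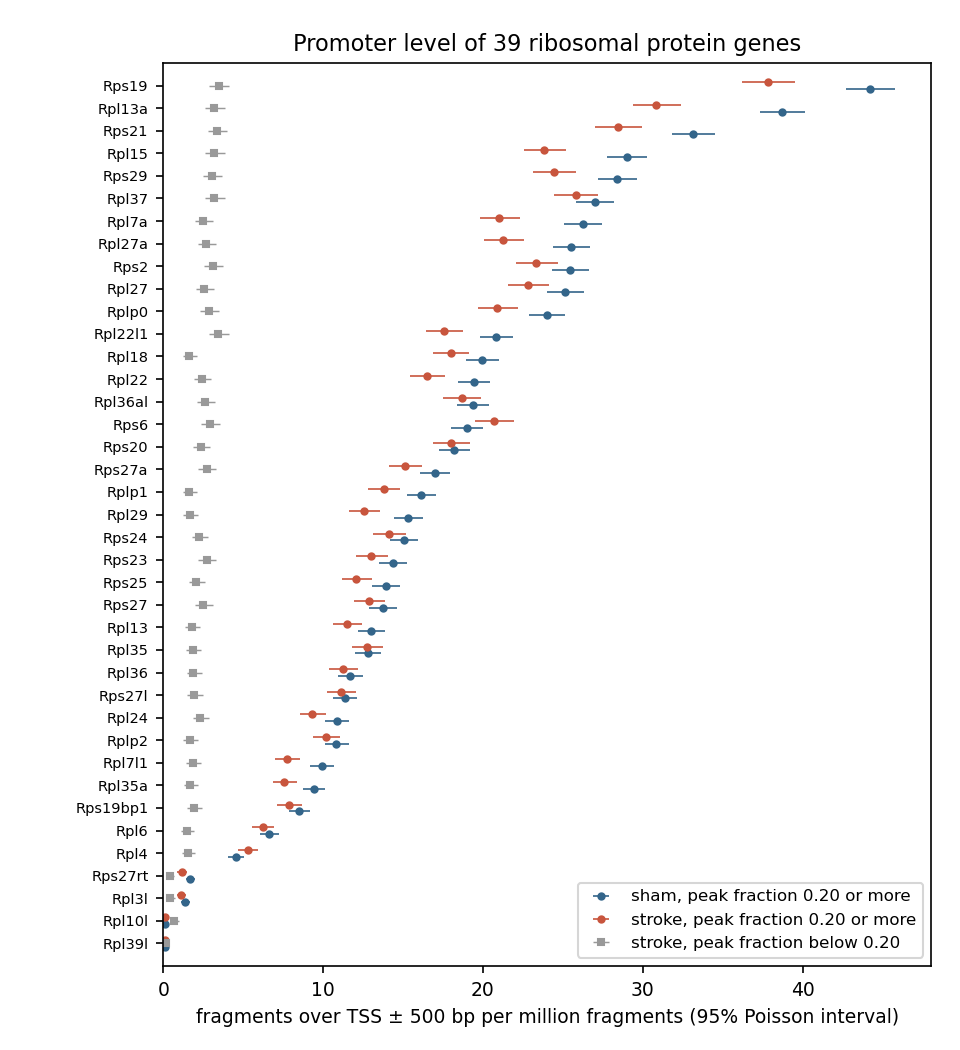
Promoter level of 39 members named in the text in CPM over TSS ± 500 bp, with 95% Poisson intervals, for sham (blue) and stroke (red) barcodes with a peak fraction of 0.20 or more and for stroke barcodes below 0.20 (grey). The genes fall in a similar order in both libraries from Rps19 down to the 4 lowest paralogs, and the grey points lie between 0.169 and 3.47.

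At the low end, Rpl4, a core protein of the large subunit, had the least open promoter outside the paralogs. It had 4.53 CPM (4.06 to 5.05) in sham and 5.28 in stroke, although its window also holds the start site of Zwilch. Rpl6 had 6.61 in sham and 6.21 in stroke, and Rpl35a, whose window holds the start site of Iqcg, had 9.40 and 7.58. The 72 genes outside the paralogs thus spanned a 9.76-fold range in sham and a 7.16-fold range in stroke barcodes with a peak fraction of 0.20 or more. Across the 81 members, the levels of sham and stroke had a Pearson correlation of 0.987 and a Spearman correlation of 0.984, given as a description, since the windows share their base composition between libraries.

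Genes of the large and the small subunit had similar levels. Over all called barcodes the median was 14.8 CPM for the 40 large-subunit genes and 16.8 for the 29 small-subunit genes in sham, and 8.36 and 10.1 in stroke. The stalk genes encode the P proteins that recruit elongation factors to the ribosome. Above the split Rplp0 had 24.0 in sham and 20.9 in stroke, Rplp1 16.1 and 13.8, and Rplp2 10.8 and 10.2, so the order of the 3 was the same in both libraries.

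The paralogs had either open or closed promoters. Rpl22l1, the paralog of Rpl22, had 20.8 CPM in sham and 17.6 in stroke, close to Rpl22 itself with 19.4 and 16.5. Rpl36al, an autosomal copy of the X-linked gene Rpl36a, had 19.4 and 18.7, in a window shared with Mgat2. Rps27l, a paralog of Rps27, had 11.3 and 11.1, against 13.7 and 12.9 for Rps27. Rpl7l1 had 9.92 and 7.75, and Rps19bp1, which encodes a partner of Rps19 and no ribosomal protein, had 8.51 and 7.88. These 5 lay within the range of the other members.

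The remaining 4 had lower levels than all other members. Rps27rt, a retrogene of Rps27, had 1.69 CPM in sham and 1.16 in stroke. Rpl3l, known from striated muscle, had 1.36 and 1.12. Rpl10l and Rpl39l, known from male germ cells as partners of X-linked genes, were closed above the split. There their levels in both libraries lay below the median of pseudogene windows. Rpl10l had 0.122 (9 fragments) in sham and 0.114 (6 fragments) in stroke, and Rpl39l had 0.0953 (7 fragments) and 0.133 (7 fragments). Their intervals overlap between the libraries. Below the split in stroke, Rpl10l lay above the median of pseudogene windows, 0.395.

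The promoters from 250 bases before to 50 after the start were searched on both strands for motifs of factors known at these genes. The ETS motif CCGGAAG was found in 25 of 81 members (30.9%) and in 11.4% of all 20807 protein-coding promoters. The YY1 motif AAGATGGC was found in 6 members (7.41%) and 3.13% of all promoters, and the NRF1 motif in 2 members (2.47%) and 1.26%. For YY1 the share was higher in mitochondrial ribosomal proteins (14.1%) and proteasome subunits (15.4%). It was 6.25% in ribosome biogenesis and 4.62% in translation factors. SP matches, GGGCGG, were about as frequent in members (50.6%) as overall (46.2%), and so were TATA matches, TATAAA (11.1% and 12.7%). The ETS share was as high in the promoters of mitochondrial ribosomal proteins (37.2%) and proteasome subunits (33.3%). A start base C followed directly by 4 or more pyrimidines was found in 9 members (11.1%) and in 2.31% of all promoters. A pyrimidine run of 5 or more around the start was found in 40 members (49.4%) and 7274 of all promoters (34.96%). Its share was 46.2% for proteasome subunits, 46.2% for translation factors, 41.7% for ribosome biogenesis and 37.2% for mitochondrial ribosomal proteins. Such runs were thus common outside the members too. These shares describe letters in the reference, not bound sites.

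Levels varied with base composition among the 72 genes outside the paralogs. The GC content had a Spearman correlation of 0.580 with the level in sham and 0.563 in stroke (Pearson 0.496 and 0.493). For the number of CpG sites it was 0.555 and 0.537. These are descriptions over genes of 1 library each. In stroke barcodes above the split the 23 genes with the ETS motif had a median of 16.2 CPM, against 13.8 for the 49 without it. The medians were 16.6 with and 13.8 without an SP match, 18.2 with and 13.5 without a TATA match (8 genes with it), and 11.3 with and 14.1 without a YY1 match (5 genes with it). In sham the motifs had differences of the same sign, and the 8 genes with the start C and pyrimidines had 13.8, against 15.6 for the other 64.

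The cut sites of Tn5 gathered at the start site itself. In barcodes with a peak fraction of 0.20 or more, cut sites within 100 bases of the start were 37.3 times the flank level in sham and 34.7 times in stroke, against 18.3 and 16.7 for all protein-coding genes. The maximum lay 20 to 40 bases before the annotated start, with 46.9 times the flank in sham and 42.2 times in stroke. Below 0.20 the same 200 bases held 8.82 times the flank level in sham and 7.32 times in stroke, against 4.54 and 3.76 for all protein-coding genes. The summit was thus lower but still present. In sham that value rests on 1202 cut sites in all and on a flank of only 2.8 cut sites per bin of 20 bp. Pseudogene windows had no summit, with 0.769 and 0.748 times the flank on the high side of the split.

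**Figure D2:**
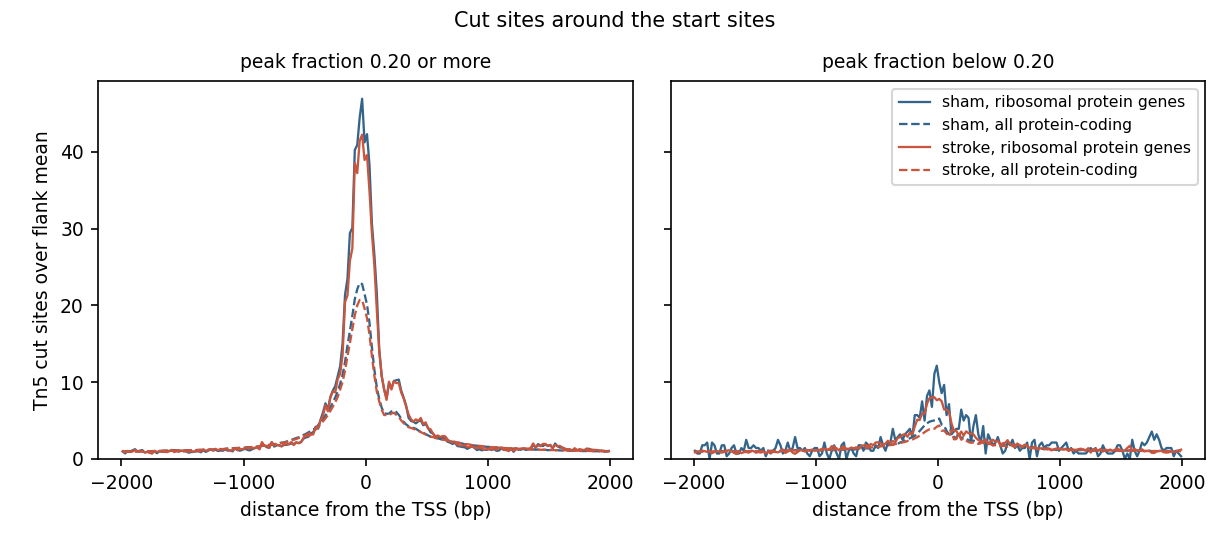
Tn5 cut sites in 20 bp bins over 2000 bp on either side of the start sites, divided by the mean of the outer 100 bp on both sides, for ribosomal protein genes (solid) and all protein-coding genes (dashed) in sham (blue) and stroke (red). The solid lines reach 46.9 and 42.2 on the left and 12.1 and 8.04 on the right. There the sham line rests on 1202 cut sites and a flank of 2.8 per bin.

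When all called barcodes were pooled, the promoters were less open in the stroke library. The summed level of the 81 members was 1305 CPM (1297 to 1313) in sham and 781 (775 to 787) in stroke, a ratio of 0.599 (0.593 to 0.605). The median log2 ratio was -0.73, and 71 of 81 members were lower by 1.5-fold or more, as were 46.0% of all 19234 windows with 20 or more fragments. Scaled to promoter fragments, 0 members were lower by that much, beside 0.140% of all windows. When barcodes were limited by their fragments in peaks and their peak fraction, the count was also 0, beside 2.78% of all windows, and the median was -0.15. All protein-coding windows had a median of -0.54, so the members differed in the same direction as promoters in general. The gap between these medians depends on windows with few fragments: with a minimum of 100 the medians were -0.73 and -0.65, and 59.3% of all windows were lower and 1.42% higher by 1.5-fold. For example, Rps19 had 43.5 CPM in sham and 24.0 in stroke over all called barcodes, Rpl13a 38.1 and 19.8, and Rps6 18.7 and 13.6. Only Rpl10l and Rpl39l were higher by 1.5-fold or more, 2 of 81 against 14.5% of all windows. Both rest on few fragments, 10 in sham and 29 in stroke for Rpl10l, and 7 and 13 for Rpl39l, whose interval of the log2 ratio (-0.78 to 2.22) includes 0.

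Scaled to fragments over all protein-coding windows, the median log2 ratio was -0.03 for the members and 0.15 for all windows. This scaling adds one constant to every log2 ratio, so the members lie 0.19 below all windows on either scale by construction. On this scale 47 members were lower and 34 higher, and 33.4% of all windows were lower, whereas on the CPM scale 79 members were lower and 2 higher, and 74.8% of all windows were lower. Of all promoter fragments, the members held 0.864% in sham and 0.839% in stroke.

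Within barcodes with a peak fraction of 0.20 or more, the members were in sum slightly less open in stroke. Their summed level was 1324 (1316 to 1332) in sham and 1182 (1173 to 1191) in stroke, a ratio of 0.893 (0.884 to 0.902), and all protein-coding windows summed had a ratio of 0.897. The median peak fraction of the barcodes on this side was 38.8% in sham and 33.2% in stroke and was not matched. Of 79 members with 20 or more fragments, none was higher and none lower by 1.5-fold, against 8.39% and 2.72% of all 17596 windows. Under some alternatives of the closing section Rps27rt was lower by that much, beside 3.03% to 4.19% of all windows. The median log2 ratio was -0.15, beside -0.11 for all windows. Scaled to promoter fragments the median of the members turned sign, to 0.0036, beside 0.048 for all windows. On that scale 40 members were higher and 39 (49.4%) lower, and 41.9% of all windows were lower. For 46 of 79 members the interval of the log2 ratio lay below 0 and for 1, Rps6, above it, against 33.6% and 9.71% of all windows. The interval narrows with the number of fragments, of which the members had more than most windows, so these shares are not matched. Rps6, the small-subunit protein phosphorylated downstream of mTOR, had 1396 fragments in sham and 1093 in stroke, whose barcodes above the split held fewer fragments in all, with a log2 ratio of 0.12 (0.01 to 0.24). The lowest log2 ratio was that of Rps27rt, -0.55 (-1.01 to -0.09). The highest was 0.22, that of Rpl4, with an interval that includes 0. The 3 stalk genes lay between -0.23 for Rplp1 and -0.09 for Rplp2, near the median.

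**Figure D3:**
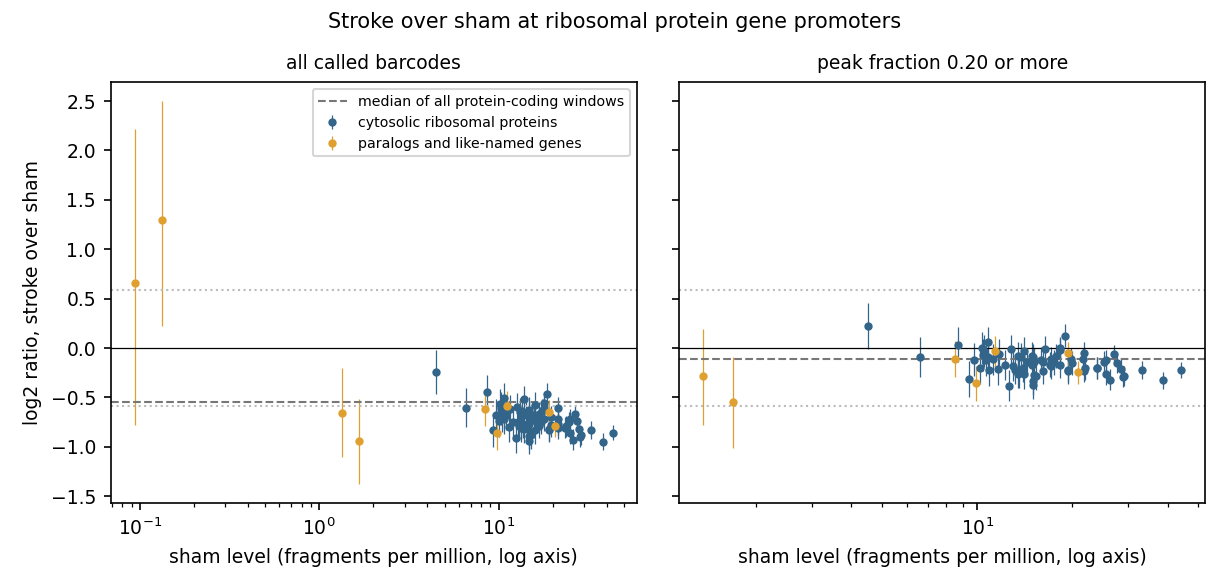
Log2 ratio of stroke over sham for each member with 20 or more fragments, with exact 95% intervals, against its level in sham on a log axis, for all called barcodes (left) and for barcodes with a peak fraction of 0.20 or more (right); the dashed line is the median of all protein-coding windows (-0.54 and -0.11) and dotted lines mark 1.5-fold. On the left most members lie below the lower dotted line, and on the right all lie between the dotted lines.

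Grouping the barcodes by peak fraction in steps of 5 percentage points, a grouping added once the data were known, gave levels that were higher at higher peak fractions, along a similar course in both libraries. The summed level was 90.3 CPM in sham and 91.4 in stroke below 10%, 721 and 728 from 20% to 25%, 1088 and 1094 from 30% to 35%, and 2003 and 2169 at 55% and above. Within these bins, which do not match the peak fraction exactly, the ratio of stroke over sham ran from 1.01 to 1.09 in 10 of 11 bins. In 7 of 11 bins the interval lay above 1 and in 4 it included 1. The exception in size was the bin from 10% to 15%, with 1.31 (1.09 to 1.59) on 120 fragments in sham. The ratio of all promoters ran from 0.866 to 1.12 over the same bins. From 25% to 30% it was 1.02, beside 1.09 for the members, and from 45% to 50% it was 1.11, beside 1.06. At 55% and above it was 1.06, beside 1.08. Intervals were not counted for all promoters, so the count for the members cannot be read as particular to them. The libraries differed in how their barcodes were spread over the bins, with 51 sham and 2420 stroke barcodes below 10%, and 887 and 342 at 55% and above. Weighting both sides of the split in stroke by the fragment shares of sham gave a summed level of 1164 and a ratio of 0.892, in place of 0.599. As 98.2% of sham fragments lie above the split, this ratio is near the 0.893 of that side by construction. It leaves the peak fraction within each side unmatched. Because the peak fraction is itself computed from open regions, the bins are a description, and condition and peak fraction cannot be told apart here.

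**Figure D4:**
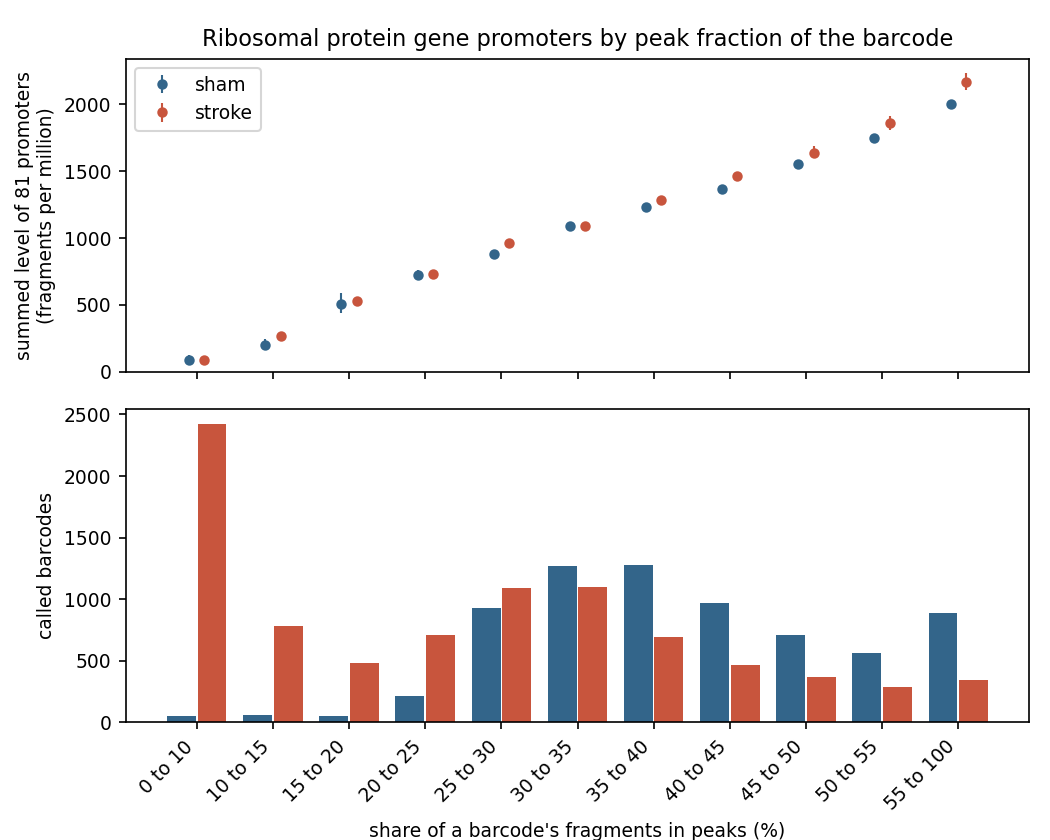
Summed level of the 81 promoters in CPM with 95% Poisson intervals (top) and number of called barcodes (bottom) by the share of a barcode's fragments in peaks, for sham (blue) and stroke (red). Levels climb from 90.3 and 91.4 to 2003 and 2169, and 2420 stroke barcodes stand in the lowest bin beside 51 of sham.

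Barcodes below the split had much lower promoter levels in both libraries. In stroke the summed level was 183 CPM (179 to 188) below 0.20 and 1182 above it, a ratio of 6.45 (6.29 to 6.62), and in sham 252 (226 to 281) and 1324, a ratio of 5.25 (4.72 to 5.86). The median log2 ratio of high over low was 2.60 in stroke and 2.41 in sham, beside 2.02 and 1.62 for all windows. Scaled to promoter fragments the medians of the members were 0.27 and 0.38, beside -0.31 and -0.41 for all windows. With the split at 0.25 the median of the members in sham was 1.31, beside 1.04 for all windows. In stroke 79 of 80 members with 20 or more fragments were higher by 1.5-fold or more, against 77.5% of all windows, and 1 was lower, against 10.7%. Scaled to promoter fragments, 17 of the 80 were higher and 3 lower by that much, beside 12.2% and 42.2% of all windows. With a minimum of 100 fragments 77 of 77 members and 99.3% of all windows were higher, and the medians were 2.61 and 2.41. In sham, among windows with fragments on both sides of the split, a limit added once the data were known, the median was 2.43 for the members and 1.87 for all windows. Fragments at these promoters count toward the peak fraction, so the split itself favours this direction, and the ratios are a description.

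Members differed in how far they lay apart on the sides of the split. In stroke the largest log2 ratios of high over low were those of Rpl18 with 3.46, Rps19 with 3.44 and Rpl13a with 3.27. Rps19 had 37.8 CPM above the split and 3.47 below it. The smallest among members with 20 or more fragments were those of paralogs, 1.45 for Rps27rt, 1.31 for Rpl3l and -2.52 for Rpl10l, which had 0.114 above and 0.650 below the split. The 72 genes outside the paralogs spanned 1.44 to 3.79 CPM below the split in stroke, a 2.63-fold range against 7.16-fold above it. Levels above and below the split in stroke had a Spearman correlation of 0.763 over these genes, so the order was kept in part. Even below the split the mean of these genes was 5.78 times the mean of pseudogene windows in stroke and 6.61 times in sham, compared with 43.1 and 49.6 times above it.

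In sham the side below 0.20 held only 336 fragments over the members, with a median of 4 per gene, and single genes cannot be ranked there. Among members with fragments on both sides, the largest log2 ratios of high over low, 4.60 for Rps20, 4.43 for Rplp1 and 4.30 for Rps19, rest on 1, 1 and 3 fragments below the split. Of members with 20 or more fragments, 4 had none there, so no ratio is given for them: Rpl3l with 100 fragments above the split, Rps27rt with 124, Rpl7l1 with 729 and Rpl30, named once its values were known, with 1200. Rps23 had the smallest ratio among members with 20 or more fragments and some on both sides, 1.09. Between the libraries below 0.20, the summed ratio of stroke over sham was 0.727 (0.651 to 0.813), and that of all protein-coding windows was 0.728. Of 76 members with fragments in both libraries, 15 were higher and 32 lower by 1.5-fold, against 12.5% and 46.1% of all such windows. The intervals of 71 of 78 members with 20 or more fragments included 0, as did 92.1% of all windows. Scaled to promoter fragments, 25 of these 78 were higher and 13 lower by 1.5-fold, beside 19.9% and 32.8% of all windows. Below a split at 0.25, 2 of 80 members were higher and 64 lower, beside 7.61% and 63.1%.

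The ratios of 4 other gene groups of protein synthesis and turnover lay near that of the members. In barcodes with a peak fraction of 0.20 or more the summed ratio of stroke over sham was 0.891 for 78 genes of mitochondrial ribosomal proteins, 0.881 for 39 proteasome subunits, 0.886 for 65 translation factors and 0.881 for 48 genes of ribosome biogenesis, beside 0.893 for the members. Over all called barcodes the ratios of these 4 groups ran from 0.593 to 0.600. Above the split the groups differed in level, with a median of 10.1 CPM in sham for mitochondrial ribosomal proteins and 13.8 for translation factors. On that side 0 genes of mitochondrial ribosomal proteins and of ribosome biogenesis passed 1.5-fold, and 1 proteasome subunit and 1 translation factor were higher by that much, beside 8.39% higher and 2.72% lower of all windows.

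Among genes of ribosomal proteins whose symbols lie outside the rule, Fau, which encodes a fusion of a ubiquitin-like protein and a small-subunit protein, had 24.6 CPM in sham and 19.4 in stroke barcodes above the split, with a log2 ratio of -0.35 (-0.46 to -0.23). Rpsa, the laminin receptor gene, had 19.8 and 16.3, with a log2 ratio of -0.28 (-0.41 to -0.16). Rack1, a scaffold on the small subunit, had 10.6 and 10.0, with -0.09 (-0.25 to 0.08). Over all called barcodes the log2 ratios were -0.93 for Fau, -0.86 for Rpsa and -0.56 for Rack1. The levels of all 3 lay within the range of the members, and the ratios of Fau and Rpsa were below the median of the members on both sets of barcodes.

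Cell classes were gated from fragments over gene bodies of marker genes in barcodes with a peak fraction of 0.20 or more. For 5 classes of at least 50 barcodes per library the list of held-out markers with the highest level was their own, at 1.62 to 4.75 times the level of all such barcodes. They are GABAergic neuron-like with 298 sham and 173 stroke barcodes, astrocyte-like with 144 and 205, OPC-like (oligodendrocyte precursor) with 63 and 76, myeloid-like with 56 and 70, and vascular-like with 75 and 72. The gates left 88.5% of sham and 86.3% of stroke barcodes without a class. In sham the myeloid-like barcodes had 1.45 times the level at held-out glutamatergic markers, close to their own 1.62. In stroke they had 0.52 there and 4.75 at their own. The sham astrocyte-like barcodes had 3.11 times at held-out OPC markers, beside 4.48 at their own. The stroke OPC-like barcodes had 2.04 times at held-out oligodendrocyte markers, beside 3.02 at their own. Glutamatergic neurons and oligodendrocytes did not meet these conditions and were not compared.

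Astrocyte-like barcodes had the most open ribosomal protein gene promoters on the CPM scale. Their summed level was 2033 (1963 to 2105) in sham and 1827 (1768 to 1887) in stroke. GABAergic neuron-like barcodes had 1410 and 1298, so the astrocyte-like level was 1.44 times theirs (1.38 to 1.51) in sham and 1.41 times (1.34 to 1.48) in stroke. The levels of all protein-coding promoters differed by as much, 1.44 and 1.36 times, and the median peak fraction was 53.6% in astrocyte-like and 36.4% in GABAergic neuron-like barcodes of sham. As a share of promoter fragments, the members held 0.883% in astrocyte-like and 0.884% in GABAergic neuron-like barcodes of sham, and between 0.836% and 0.894% in all 5 classes of both libraries.

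**Figure D5:**
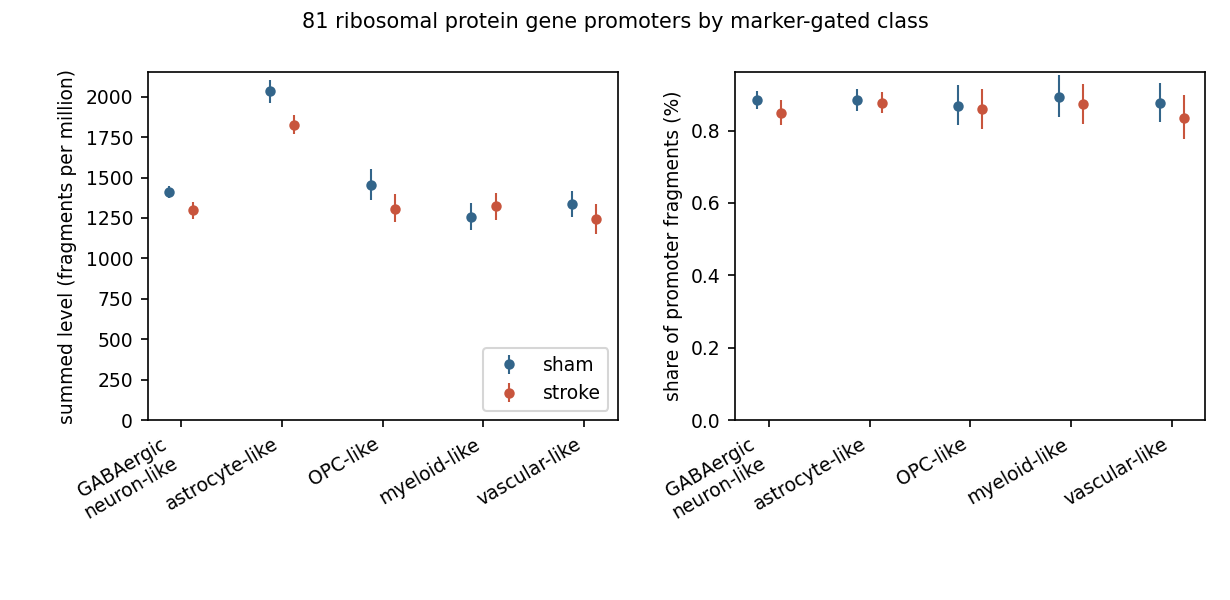
Summed level of the 81 promoters in CPM with 95% Poisson intervals (left) and as a percentage of fragments over all protein-coding promoters with exact binomial intervals (right) in 5 marker-gated classes of sham (blue) and stroke (red). The astrocyte-like class stands above the others on the left at 2033 and 1827, and on the right the classes lie between 0.836% and 0.894%.

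Between the libraries the summed ratio of stroke over sham was 0.920 (0.876 to 0.966) in GABAergic neuron-like, 0.899 (0.857 to 0.943) in astrocyte-like and 0.900 (0.821 to 0.988) in OPC-like barcodes. When all called barcodes were gated, the log2 ratio of the OPC-like class was -0.84, in place of -0.15, and that of the vascular-like class -0.65, in place of -0.10. The ratio was 0.931 (0.845 to 1.03) in vascular-like and 1.05 (0.960 to 1.15) in myeloid-like barcodes, where the interval includes 1. All promoters had ratios of 0.958, 0.904, 0.911, 0.975 and 1.08 in the same order of classes. The myeloid-like ratio was the only one above 1, and per promoter fragment it was 0.977 (0.892 to 1.07). The myeloid-like barcodes compared differ in marker content, with held-out myeloid markers at 1.62 times in sham and 4.75 times in stroke. Median peak fractions in sham and stroke were 36.4% and 32.8% in GABAergic neuron-like, 53.6% and 51.9% in astrocyte-like and 39.7% and 34.7% in OPC-like barcodes. In vascular-like barcodes they were 40.1% and 35.7%, and in myeloid-like barcodes 36.6% and 30.9%. The class ratios were not matched for peak fraction, with which levels climbed in the bins above. Whether the ratios of the classes differ was not tested.

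Single genes could be compared in the larger classes only. In GABAergic neuron-like barcodes 77 members had 20 or more fragments, of which 2 were higher, against 7.56% of all windows, and 7 lower by 1.5-fold, against 10.7%. The lowest log2 ratios there were -0.97 for Rps23 and -0.91 for Rps25, and the highest were 0.78 for Rps27l and 0.71 for Rpl36, both with intervals that include 0. In astrocyte-like barcodes 5 of 77 were higher, against 9.12%, and 9 lower, against 13.0%. Rpl29 had 34.5 CPM in sham and 17.5 in stroke there, with a log2 ratio of -0.98 (-1.64 to -0.34), followed by Rpl35a with -0.88. The highest were Rpl24 with 1.08 (-0.01 to 2.29) and Rpl36 with 0.80. No gene was among the extremes of both these classes in one direction but Rpl36.

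In the 3 smaller classes the extremes rest on a few fragments each. In OPC-like barcodes Rpl13a had 39 fragments in sham and 16 in stroke (log2 ratio -1.45, -2.39 to -0.58) and Rpl36al had 16 and 9, whereas Rps27a had 7 and 17 and Rpl13 had 7 and 15. In myeloid-like barcodes Rps27l had 7 and 20 fragments (log2 ratio between 0.20 and 2.99) and Rps24 had 8 and 20, whereas Rps21 had 24 and 10 and Rpl35 had 19 and 10. In vascular-like barcodes Rps6 had 10 and 19 fragments (1.32, 0.14 to 2.58) and Rps21 had 17 and 26, whereas Rpl13 had 16 and 4 and Rpl36al had 20 and 6. Rps21 thus lay among the lowest ratios in one class and among the highest in another.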

How the data were processed

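Libraries were made with the 10x ATAC kit from nuclei extracted from frozen tissue and sequenced on an AVITI instrument. The authors aligned the reads with a patched Cell Ranger ATAC 2.1.0 to mm10 and deposited, per library, fragments with ends already shifted to the cut sites and a table of counts per barcode, both as raw counts without normalization. Barcodes flagged as cells in the deposited counts per barcode were used, without the further cell filter of the paper's methods. Fragments overlapping TSS ± 500 bp by 1 base or more were counted once, with start sites of the principal transcripts of GENCODE M21. The calls at 1.5-fold required 20 fragments over both groups, and a count of 0 was set to 3. With 1 library per condition no test was made. Intervals came from scipy 1.17.1 in Python 3.11.15 (numpy 2.4.6, pandas 2.3.3), and the ratio code was tested on simulated data. The reads are PCR products, so intervals cover counting error only.

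The members and lists were chosen with earlier results of these data known. Members named are the 12 highest and 8 lowest by mean level, the stalk genes, the paralogs, those past 1.5-fold above the split, the 3 largest and 3 smallest ratios of high over low per library, the 2 largest and 2 smallest per class, and genes outside the symbol rule; Rps6, Rpl22 and Rps27 were added after their values had been seen. Some genes this rule names are not reported here. A class needed 3 times the expected fragments at its gate markers, 2 times the next class and 3 markers detected; these thresholds were set after levels under several gates had been seen. No doublets were removed. The authors' cell labels, filters on blacklist, nucleosome signal and TSS enrichment, and the scRNA-seq data were not used here. Alternatives are given in the closing section.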

Additional observations from a re-analysis of the deposited data

Results flagged for a closer look

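Fragments at these promoters also occurred in barcodes that were not called as cells, which enter no comparison above. In sham 2146756 fragments (2.79% of the library) carried such barcodes, and the 81 members had a summed level of 1291 CPM (1243 to 1340) in them, close to the 1305 of called barcodes. In stroke 8272764 fragments (8.58%) did, with a summed level of 298 (286 to 310), against 781 in called barcodes. They are listed here only because these barcodes hold member fragments at all, above the level that a count of 0 allows, 1.40 in sham and 0.363 in stroke, which any count of this size exceeds. The difference between the libraries was not tested.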

How the results depend on the processing

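No paired analysis was possible because sham and stroke were 1 library each, and for the same reason no replicate could be left out. Scaled to promoter fragments, the median level was 98.4 in sham and 95.5 in stroke per 1000000 such fragments. The median log2 ratio of stroke over sham became -0.0332 over all called barcodes, with 0 members lower by 1.5-fold, beside 0.140% of all windows. It was 0.0036 at a peak fraction of 0.20 or more and 0.0477 below it, both with the sign turned. Under this scaling high over low was 0.38 in sham and 0.27 in stroke, the class ratios were -0.0093 (astrocyte-like), -0.0171 (OPC-like) and -0.0341 (myeloid-like, sign turned), and astrocyte-like over GABAergic neuron-like was -0.0017 in sham (sign turned) and 0.0480 in stroke. With TSS ± 250 bp the levels were 13.1 and 7.69 and high over low in stroke was 2.82. The upstream side of the window alone gave 10.3 and 5.95, and -0.82 for stroke over sham below 0.20. Both windows, and the split at 0.15, added 1 member lower by 1.5-fold above the split, Rps27rt. Of all windows, 3.86% were lower by that much with TSS ± 250 bp, 4.19% with the upstream side and 3.03% with the split at 0.15. With the split at 0.15, the ratio above it was -0.22 and high over low 2.83 in sham and 3.04 in stroke. With the split at 0.25, the ratio was -0.0866 above and -0.91 below it, and high over low 1.31 and 2.09. Limits on fragments in peaks and peak fraction alone, a part of the cell filter of the methods, gave -0.15 with 0 members lower by 1.5-fold, beside 2.78% of all windows, against -0.73 and 71, beside 46.0%, without them. A stricter gate gave 0.61 for astrocyte-like over GABAergic neuron-like in sham, with 23 to 139 barcodes per class and library, and gating all called barcodes gave -0.84 for OPC-like and -0.65 for vascular-like. Apart from these scaling and barcode choices, whose construction changes what is counted, the cause of a shift was not tested. Cut sites, the 5′ end of the gene record, no minimum, a minimum of 100, and leaving out the deepest 5% of barcodes, the paralogs or, chosen after the data had been seen, the 12 windows with another start site moved none of these medians beyond its tolerance, the 95% order-statistic interval over members. Leaving out windows at 0 on one side, also chosen after the data had been seen, moved no median beyond it either. Of 89 further counts of members past 1.5-fold under these alternatives, 57 stayed within 1.5 times the same count under the main settings and 32 did not. Depth limits single genes below 0.20 in sham, with a median of 4 fragments, and in the smaller classes.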

Other observations

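Small nucleolar RNA genes lie on the same strand inside 27 of the 81 members. These host genes had a median level of 16.3 CPM in sham and 15.1 in stroke barcodes with a peak fraction of 0.20 or more, against 14.9 and 13.1 for the other 54. The 12 members whose window holds the start site of another protein-coding gene had medians of 15.5 and 14.2, near those of the other 69.

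Fragments shorter than the DNA wrapped around a nucleosome made up 76.7% (76.4% to 77.0%) of fragments at the members in sham and 77.0% (76.7% to 77.3%) in stroke barcodes with a peak fraction of 0.20 or more. Below 0.20 the share was 81.2% (80.2% to 82.1%) in stroke, where all protein-coding windows had 79.5% and pseudogene windows 64.3%. In sham it was 77.1% (72.2% to 81.5%) there, from 336 fragments, and 79.1% for all protein-coding windows.

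The summed level of the pseudogene windows was 90.6 CPM in sham and 97.5 in stroke over all called barcodes, a ratio of 1.08 (1.04 to 1.11). The ratio was 1.03 (0.990 to 1.07) at a peak fraction of 0.20 or more, where the interval includes 1, and 0.827 (0.709 to 0.971) below it.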
